A study of Mus musculus with 8 samples.

Results

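The potassium channel genes described here were the 74 genes whose symbol begins with Kcn and which had at least 100 UMIs (unique molecular identifiers, each standing for 1 captured transcript) over 8 Visium sections of mouse brain. Of 32285 features, 99 begin with Kcn. Kcne2, Kcnj13 and Kcnj8, which belong to choroid plexus and vessel gene groups, and the antisense and opposite-strand transcripts were left out by name, and 91 symbols remained before the limit on UMIs. Kcnk5 with 117 UMIs and Kcnmb1 with 168 lay just inside that limit, and Kcnq1 and Kcnk7, both with 77, lay just outside it. Together the 74 genes held 830746 of 273263080 UMIs, between 28.17 and 33.05 per 10000 in each section.

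All mice carried p16-3MR, a transgene under the p16 promoter that encodes a reporter and a viral thymidine kinase through which ganciclovir (GCV) kills the cells that express it. The labels gave male mice of 9 to 10 months. Control mice received vehicle. The other 3 groups received paclitaxel (PTX), a microtubule-stabilising chemotherapy drug, at 5 mg/kg/day in 2 cycles of 5 days that lay 7 days apart. Afterwards they were given vehicle (PTX), GCV at 25 mg/kg/day (PTX+GCV) or the BCL-2 family inhibitor ABT263 at 1.5 mg/kg/day (PTX+ABT263), in 2 cycles of 5 days, 2 weeks apart. Brains were taken 6 months after PTX, and 2 coronal sections of 10 µm per group were placed on arrays whose 55 µm spots are small regions that can hold several cells. The contrasts ask what PTX left behind and whether clearing p16-expressing cells altered it.

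Each section kept 2346 to 2839 spots and 19870666 to 42886400 UMIs, with medians of 7583 to 15716 UMIs per spot. It was not stated whether 2 sections of 1 group were from different mice, so p-values measure only the spread between sections. The first Control section had the fewest UMIs and the first PTX section the most. Both sections labelled PTX+ABT263 held Xist (19.69 and 19.25 CPM, UMIs scaled to a common library total) and almost no Ddx3y (0.4439 and 0 CPM), whereas the other 6 sections held at most 0.0259 CPM of Xist and at least 31.15 CPM of Ddx3y. Xist is transcribed from the inactive X chromosome of females and Ddx3y lies on the Y chromosome, so treatment and sex cannot be told apart where these sections, called the ABT263-labelled sections here, are compared with PTX.

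Potassium channels let potassium leave or enter cells and so set the resting potential, shorten action potentials and fix the rate at which neurons fire. Voltage-gated (Kv) subunits assemble as tetramers with auxiliary subunits, inward rectifiers carry current near rest, two-pore domain channels give a leak, and another group opens with intracellular calcium or sodium. Kv3 channels close quickly and are known from fast-spiking neurons, whereas in astrocytes Kcnj10 (Kir4.1) takes up potassium released by active neurons.

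The members fell into 11 families. Auxiliary subunits had the most UMIs, 200449 over 12 genes, followed by 114169 over 11 inward rectifiers and 104866 over 4 Kv3 genes. Kv7 held 78915 UMIs over 4 genes, the two-pore domain family 62444 over 10, Kv1 56994 over 5, the silent Kv subunits 52502 over 8, the calcium and sodium gated channels 51058 over 7, the EAG and ERG family 45397 over 8, Kv4 36855 over 3, and Kv2 27097 over 2. Among the 10 genes with most UMIs were Kcnab2, Kcnc1, Kcnj10, Kcna2, Kcnc2, Kcnip2, Kcnk1 and Kcnab1, with 59057 UMIs for Kcnab2, the highest. Over the 8 whole sections Kcnab2, a cytoplasmic β subunit of Kv1 channels, lay between 193.6 and 242.4 CPM. Counts of one gene were not set against those of another beyond this order, because the values are not per length.

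To see where in the brain these genes were read, spots were clustered without any gene whose symbol begins with Kcn, and the clusters were named from marker genes. This gave 13 areas, 12 of them named and 1 called by its leading gene Ucn3. In each area UMIs were summed per section and compared with the rest of the same section. Of 72 members that could be tested in at least 1 area (Kcnh6 and Kcnk5 could not), 50 were at least 2 times higher in at least 1 area at an adjusted p under 0.05 (edgeR quasi-likelihood test, Benjamini-Hochberg over all genes), where 42.9% of all 14887 genes were. 34 of the 50 were higher in 1 area, 11 in 2, 4 in 3 and 1, Kcne1l, in 4. Kcnh8 and Kcnmb1 passed the filter on low counts in 1 area each and Kcnj5 in 2, through the area where they were high, so their calls support nothing. By median level, 14 members were highest in the upper isocortex, 13 in the reticular thalamus and pallidum, 10 in the thalamus and 8 in the striatum.

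**Figure D1:**
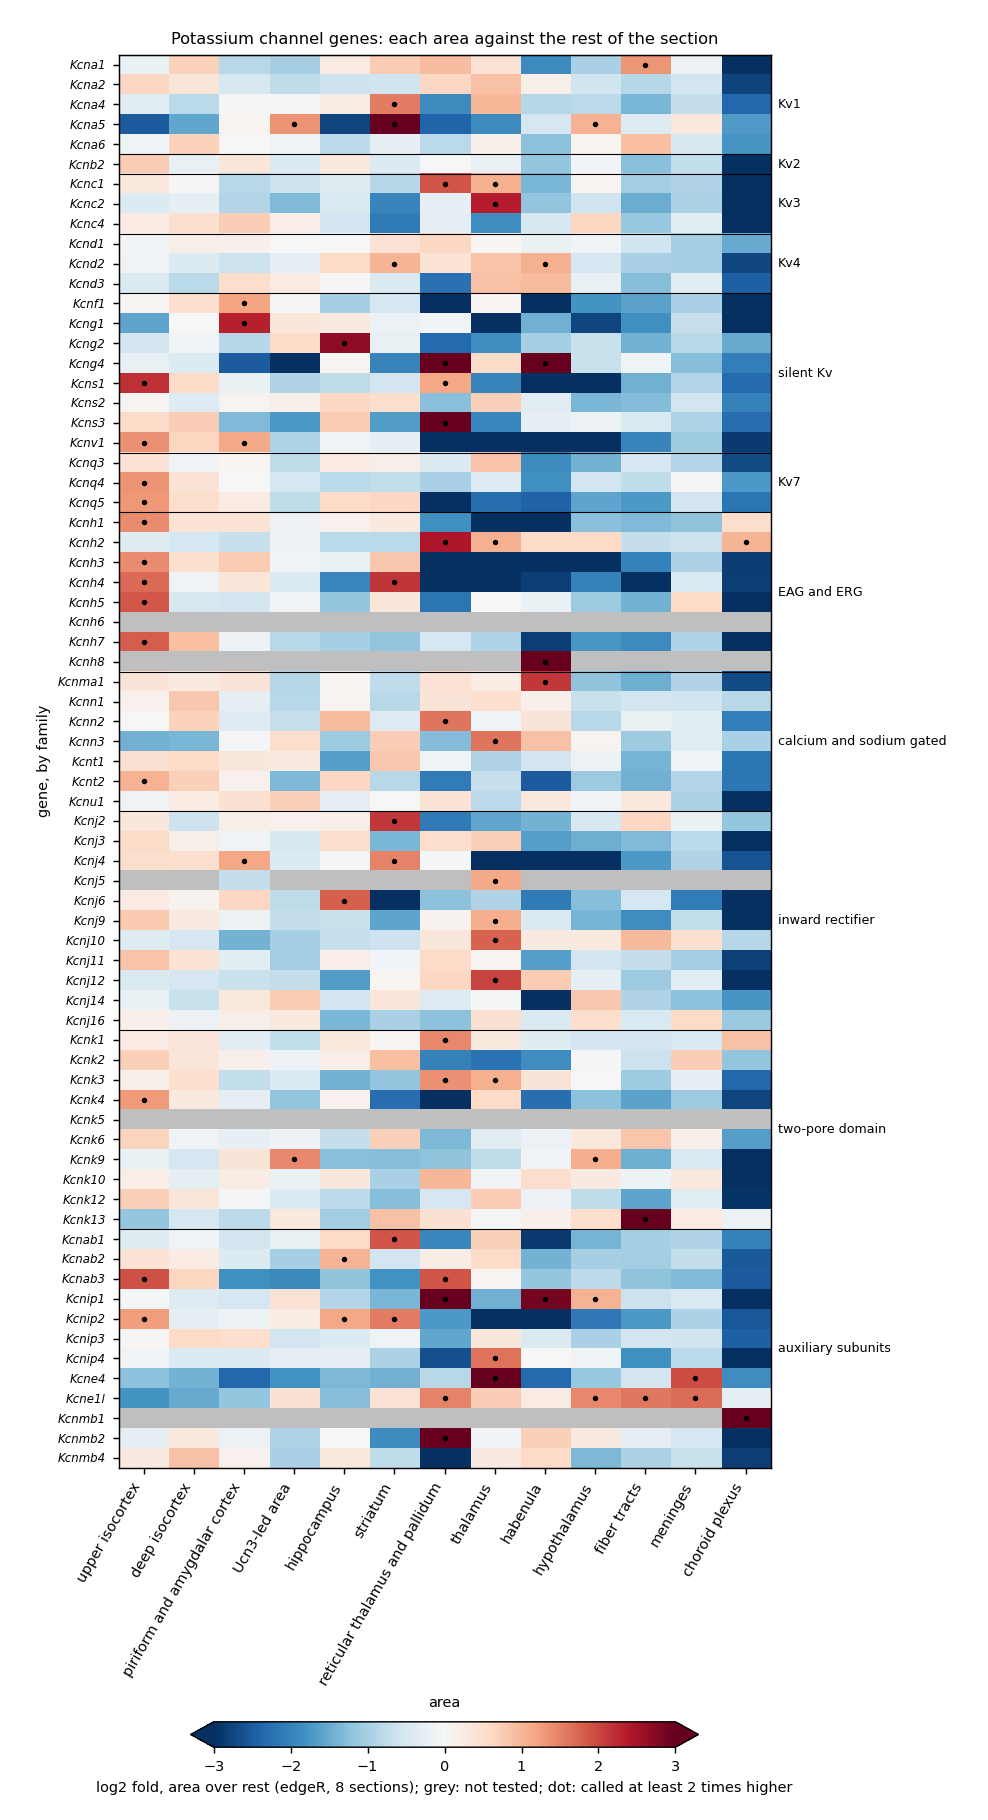
Level of 71 of the 74 potassium channel genes (rows, grouped by family) in the 13 areas (columns), as colour for the fitted log2 fold of the area over the rest of the section, with a dot where a gene was called at least 2 times higher and grey where it was not tested. The upper isocortex holds 13 dots, the reticular thalamus and pallidum 12 and the thalamus 11, and the choroid plexus column is blue (lower) for 54 of the 67 tested genes drawn, at the same limit.

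The thalamus relays sensory and motor signals to the cortex, and its 10 fixed markers were all higher in its spots. 11 of 70 members were at least 2 times higher there (4.84% of all genes) and 16 at least 2 times lower (9.70%). Kcne4, a small subunit that reduces current through partner channels, had 2.27, 8.22 and 14.9 CPM as lowest, median and highest of the 8 sections against a median of 0.767 CPM in the rest, a fold of 10.6 (adjusted p = 4.04e-09, edgeR). Kcnc2, a Kv3 subunit, had 300.4, 362.5 and 441.5 CPM against 68.1 (5.10-fold), and the inward rectifier Kcnj12 had 15.9, 22.1 and 26.1 CPM against 5.41 (4.09-fold). In each of the 8 sections these 3 genes were higher in the thalamus than outside it. Kcnj10 followed at a median of 370.2 CPM, 3.41-fold over the rest, and the other inward rectifiers called were Kcnj5 and Kcnj9. Kcnj5 passed the filter on low counts through the area where it was high, so its call supports nothing. Kcnv1, a silent subunit, was lowest with a median of 1.74 against 43.2 CPM, and Kcnj4 had 4.44 against 74.4 CPM.

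The reticular thalamus and pallidum, where GABAergic neurons with parvalbumin are dense, had 13 of 69 members at least 2 times higher (4.37% of all genes) and 25 lower (10.6%). The silent subunit Kcng4 had 76.6, 98.1 and 143 CPM as lowest, median and highest against 5.95 in the rest, a fold of 16.3. Kcns3, another silent subunit, reached 60.1, 95.6 and 165 CPM against 5.61 (15.9-fold), and Kcnmb2, a β subunit of the large-conductance calcium-gated channel, 11.7, 27.9 and 43.1 CPM against 2.91 (9.95-fold). No section's level of these genes in this area overlapped with the level of any section's pooled rest. Within that rest, Kcng4 had 28.1, 109 and 203 CPM as lowest, median and highest in the habenula, which overlaps its levels here. The Kv3 gene Kcnc1 was 3.72-fold higher. Kcnv1 had 3 UMIs in the area and Kcnh4 had 1, against rest medians of 37.6 and 7.45 CPM.

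The striatum, the input nucleus of the basal ganglia, had 8 of 69 members higher (3.62% of all genes) and 17 lower (7.09%). Kcna5, a Kv1 subunit, had 14.9, 24.6 and 43.7 CPM against a rest median of 3.45, a fold of 7.92. Kcnh4, an ELK-type channel, had 15.6, 24.7 and 28.6 CPM (4.39-fold), and Kcnj2, which encodes Kir2.1, 10.7, 22.7 and 25.9 CPM (4.33-fold). All 3 were above the rest in each section. Kcnab1, a β subunit, was 3.69-fold higher. Of the lower members, Kcnj6 had 1 UMI and the two-pore channel Kcnk4 a log2 difference of -2.29.

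In the hippocampus, 4 of 69 members were higher (3.74% of all genes) and 14 lower (7.93%). Kcng2, a silent subunit that modifies Kv2 channels, had 38.4, 44.5 and 63.2 CPM against a rest median of 6.99 (6.38-fold). The G protein-gated rectifier gene Kcnj6 had 2.76, 3.96 and 6.63 CPM (3.46-fold) and Kcnip2, a calcium-binding partner of Kv4 channels, 197.7, 219.6 and 248.3 CPM (2.24-fold). Kcna5 and Kcnh4, both higher in the striatum, were the lowest here, with log2 differences of -2.76 and -1.96. With finer clusters, a split chosen after seeing the data, the dentate gyrus could be set against CA1, and 8 of 42 members differed at least 2 times, 3 higher and 5 lower (8.69% of all genes). Kcnc4, the Kv3 subunit of A-type currents, had a lowest, median and highest of 95.2, 139.7 and 164.7 CPM in the dentate gyrus and 15.03, 21.4 and 28.3 CPM in CA1. It was 5.36-fold higher in the dentate gyrus, while Kcnq5, a subunit of M-type current, was lower there, with a median of 10.1 against 62.4 CPM.

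The upper isocortex had the most members higher than the rest, 14 of 69 (2.50% of all genes), and 6 lower (7.04%). Kcns1, a silent subunit, had 36.4, 55.1 and 66.8 CPM against a rest median of 12.9 (4.54-fold), Kcnab3, a β subunit of Kv1 channels, 70.6, 119.8 and 157.7 CPM (3.78-fold), and Kcnh5 of the EAG family 5.36, 6.79 and 8.94 CPM (3.67-fold). 5 of the 8 EAG and ERG genes were called here, Kcnh1, Kcnh3, Kcnh4, Kcnh5 and Kcnh7. Kcna5 and Kcne1l were lower, by log2 differences of -2.50 and -1.80. The deep isocortex had 0 of 69 members higher (1.73% of all genes) and 4 lower (5.05%), led by Kcna5 at -1.55 and Kcne1l at -1.52. With the finer clusters, the upper layers differed from layer 6 in 6 of 63 members, all 6 of them higher (4.42% of all genes), Kcnh5 4.73-fold and Kcnab3 3.90-fold. Layer 5 differed from layer 6 in 6 of 60 (2.54% of all genes), with Kcng2 3.59-fold, Kcnab3 3.17-fold and Kcna2 2.09-fold higher and Kcnh4 lower.

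In the piriform and amygdalar cortex 4 of its 7 fixed markers counted as higher, and 3 of the same 7 did in the area led by Ucn3. The piriform and amygdalar cortex had 4 of 70 members higher (1.74% of all genes) and 6 lower (4.91%). Kcng1, a silent Kv subunit, had 38.1, 57.2 and 66.1 CPM against 11.01 in the rest (5.03-fold). Kcnf1, also silent, had 107.1, 125.2 and 142.9 CPM (2.27-fold) and Kcnj4, or Kir2.3, 91.7, 115.1 and 130.6 CPM (2.25-fold). Kcng4 and Kcne4 were the lowest, by -2.49 and -2.36 on the log2 scale. The area led by Ucn3 had 2 of 69 members higher (3.03%) and 9 lower (4.92%). Kcnk9, a two-pore acid-sensitive leak channel, had 40.4, 81.9 and 103.3 CPM there (2.73-fold) and Kcna5 6.98, 10.1 and 15.4 CPM (2.53-fold), while Kcng4 and Kcnab3 were lower by -3.35 and -1.94.

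The habenula, a small nucleus of 10 to 33 spots per section, had 5 of 70 members higher (4.87% of all genes) and 29 lower (8.94%). Kcnh8, which has 178 UMIs in the series, had 57 of them here, with 9.83, 22.8 and 31.2 CPM against 0.441 in the rest (41.3-fold). It passed the filter on low counts through this area alone, so its place among the 5 supports nothing. Kcng4 was 16.1-fold higher, Kcnip1, a calcium-binding Kv4 partner, 7.34-fold, and Kcnma1, the pore of the large-conductance calcium-gated channel, 4.33-fold. Levels of Kcnip1 ran from 46.2 CPM in the Control section with 10 habenular spots to 452.3 CPM. Kcnh3 was lower by -4.94, and Kcnj14 had 0 UMIs of 2629016, which with 3 counts as the limit over all sections gives a level at least 1.41-fold lower than in the rest. The hypothalamus had 4 of 69 members higher (4.09%) and 25 lower (7.07%). Kcne1l, a small auxiliary subunit, had 7.94, 11.3 and 15.3 CPM there (2.70-fold), Kcnk9 was 2.14-fold and Kcnip1 2.07-fold higher, and Kcnh3 and Kcnj4 were lower by -4.05 and -3.48.

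In each area except the upper isocortex, more members were lower than higher. The fiber tracts had 3 of 69 members higher (12.8% of all genes) and 38 lower (12.4%). Kcnk13, a two-pore channel, had 35.3, 54.5 and 70.6 CPM against 7.84 (7.90-fold), Kcne1l was 3.00-fold higher, and Kcna1, an axonal Kv1 subunit, had 3.08, 8.14 and 13.8 CPM (2.50-fold). Kcnh4 and Kcnh3 were lower by -3.02 and -2.02. The meninges had 2 of 69 higher (10.6%), Kcne4 by 3.88-fold on 19 UMIs and Kcne1l by 3.21-fold, and 9 lower (2.92%), led by Kcnab3 at -1.31 and Kcng4 at -1.29. In the choroid plexus 2 of 70 were higher (15.8%) and 57 lower (22.4%). Kcnmb1, a β subunit known from smooth muscle, had 5.88, 11.9 and 38.4 CPM on 34 UMIs there (32.3-fold). It passed the filter on low counts through this area alone, so its call supports nothing. Kcnh2, which encodes the ERG channel, had 46.7, 68.0 and 71.6 CPM (2.04-fold). Kcnj12 and Kcnmb2 had 0 of 2419322 UMIs, at least 6.42-fold and 2.67-fold lower than the rest with 3 counts as the limit over all sections.

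**Figure D2:**
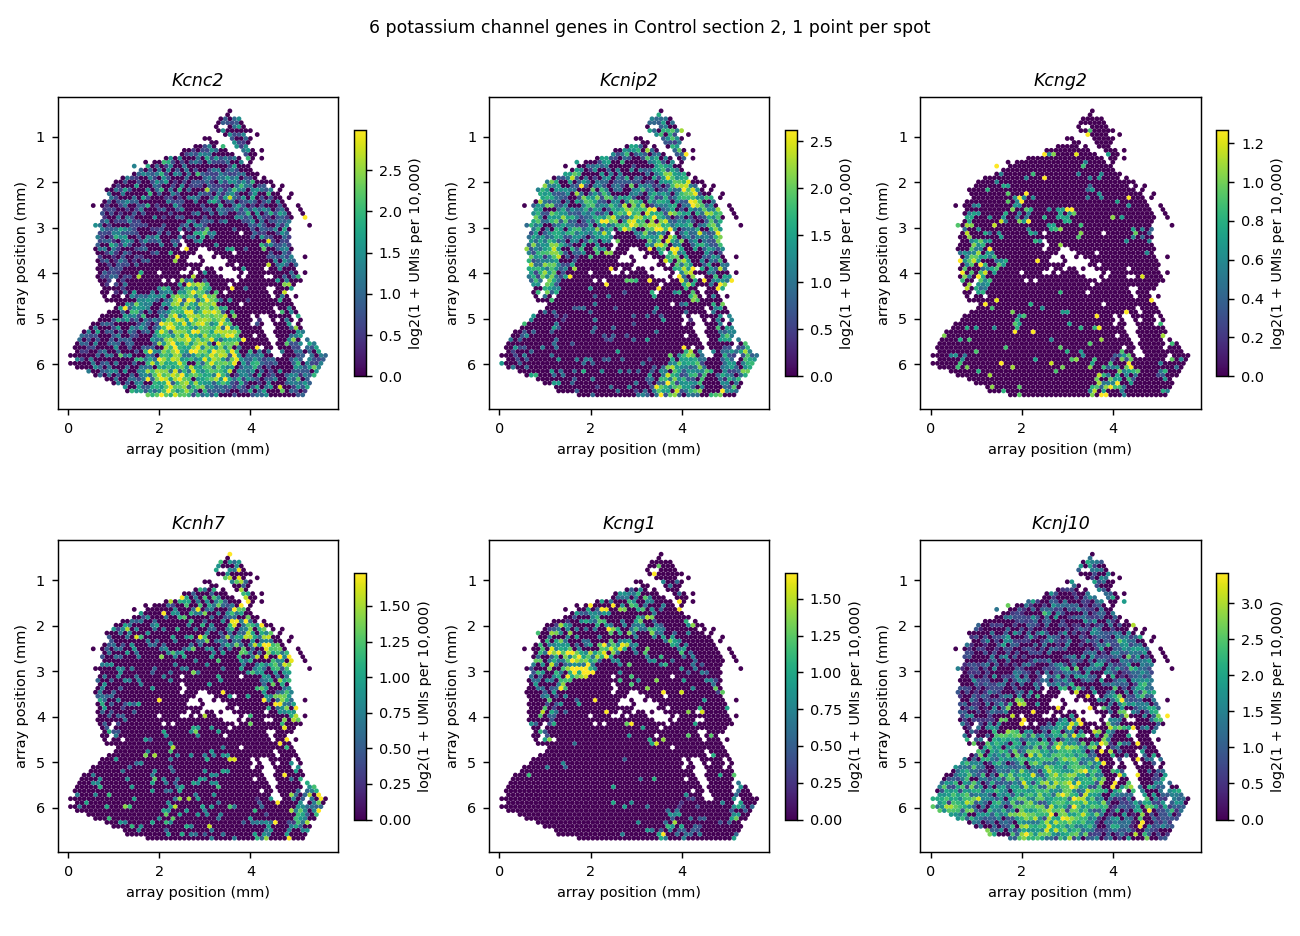
Level of 6 potassium channel genes over the spots of the second Control section, each panel with its own colour scale of log2(1 + UMIs per 10000) and axes of array position in mm. Kcnc2 and Kcnj10 are brightest over the block of thalamic spots at the lower middle, where Kcnip2, Kcng1 and Kcnh7 are dark, Kcnh7 is brightest along the right edge and Kcng1 in a patch at the upper left.

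The map of spots in the second Control section shows Kcnc2 ending sharply at the border of the thalamus, while Kcnj10 also spreads over the spots around it. By family, 10 of 12 auxiliary subunits, 7 of 8 EAG and ERG genes, 7 of 8 silent Kv subunits and 7 of 11 inward rectifiers were higher in at least 1 area. So were 5 of 10 two-pore, 4 of 7 calcium and sodium gated, 3 of 4 Kv3, 3 of 5 Kv1, 2 of 4 Kv7, 1 of 3 Kv4 and 1 of 2 Kv2 genes. Of all 14887 genes, 42.9% were, and families of so few genes were not tested against that share. The counts include Kcnmb1 (auxiliary), Kcnh8 (EAG and ERG) and Kcnj5 (inward rectifier), whose calls support nothing. In bulk sums over spots, fewer cells of a type and less RNA per cell cannot be told apart, which holds for each difference between areas or groups given here.

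Across whole sections, with 2 sections per group, edgeR called at most 1 member per contrast. In PTX against Control 1 of 74 members was called (0.126% of all genes), and DESeq2 called 3 members and 146 genes in all. An unadjusted p under 0.05 was found for 26 members (35.1%), beside 13.5% of all genes. Kcnip1, which binds Kv4 channels and calcium, had 41.7 and 45.6 CPM in PTX against 32.8 and 27.5 CPM in Control. The log2 change was 0.54 ± 0.09 (SE, adjusted p = 0.048, edgeR). This call was lost without Control section 2 (adjusted p = 0.116), PTX section 1 (0.113), PTX section 2 (0.196) or either ABT263-labelled section in the fit (0.0539 and 0.0535). The next 4 by p did not pass. Kcne4 had 1.32 and 0.825 CPM against 2.54 and 3.18, a log2 difference of -1.42 (adjusted p = 0.0875), and Kcnj16, a glial partner of Kcnj10, 13.97 and 17.5 CPM against 26.0 and 21.1, a difference of -0.57 (0.0948). Kcnq5 and the sodium-gated Kcnt1 had differences of 0.35 and 0.34. The median log2 difference was 0.03 over the members and 0.01 over all genes.

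In PTX+GCV against PTX 0 of 74 members were called by edgeR (0.0240% of all genes), and DESeq2 called 0 members and 79 genes in all. An unadjusted p under 0.05 was found for 16 members (21.6%), beside 10.7% of all genes. The smallest p belonged to Kcnmb4, the neuronal β subunit of the large-conductance channel, with 83.5 and 84.8 CPM against 66.9 and 73.1 (log2 0.27, adjusted p = 0.199), and Kcnip1 (-0.33), Kcng1 (0.57) and Kcne4 (0.92) were also among the 5 smallest. In the ABT263-labelled sections against PTX, 0 of 74 were called by edgeR (0.138% of all genes), and DESeq2 called 4 members and 110 genes in all. An unadjusted p under 0.05 was found for 15 members (20.3%), beside 11.8% of all genes. Kcnt1 had 46.6 and 38.8 CPM against 60.6 and 60.4 (log2 -0.50, adjusted p = 0.0739), Kcna1 4.65 and 7.25 against 2.04 and 3.02 (1.24, 0.0842), and Kcnq5, Kcnip3 and Kcnj10 had -0.44, 0.25 and 0.38. All 3 contrasts share the 2 PTX sections.

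In the isocortex, PTX against Control called 0 of 69 members with edgeR (0.397% of all genes), with 18 at an unadjusted p under 0.05 (12.5% of all genes) and 0 by DESeq2, which gave an adjusted p to 37 of them. The 5 smallest p belonged to Kcnj16 (log2 -0.72, adjusted p = 0.0922), the small-conductance channel Kcnn3 (-0.998), Kcnmb4 (-0.30), Kcna1 (-1.01) and Kcnab3 (0.46). PTX+GCV against PTX called 0 (0.0279%; 6 at an unadjusted p under 0.05, beside 6.78% of all genes, and 0 by DESeq2), with Kcnf1, Kcnmb4 and Kcnj6 between 0.22 and 0.89 on the log2 scale among the 5 smallest p. The sections labelled PTX+ABT263 against PTX gave 1 call (0.244%), where 11 had an unadjusted p under 0.05 (10.7% of all genes) and DESeq2 called 1. Kcna1 had 6.28 and 9.92 CPM against 2.18 and 3.12 in PTX, a log2 change of 1.61 ± 0.30 (SE, adjusted p = 0.0273, edgeR), with 3.78 and 6.52 CPM in Control. Without PTX section 1, PTX section 2 or the second ABT263-labelled section it did not pass (adjusted p = 0.501, 0.0527 and 0.605). Kcnj10, Kcnt1, Kcnip3 and Kcnj16 followed with 0.47, -0.35, 0.26 and 0.47 and did not pass.

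The piriform and amygdalar cortex had 0 of 68 members called in PTX against Control (0.584% of all genes; edgeR), with 12 at an unadjusted p under 0.05 beside 11.15% of all genes, and DESeq2 called 0 of the 29 to which it gave an adjusted p. In PTX+GCV against PTX 0 were called (0.0823%), with 5 at an unadjusted p under 0.05 beside 5.30% of all genes, and 0 by DESeq2. The ABT263-labelled sections against PTX gave 3 calls (0.741%), with 15 at an unadjusted p under 0.05 beside 11.4% of all genes, and DESeq2 called 1. Kcnt1 had 50.3 and 46.3 CPM against 70.0 and 74.3 and fell by 0.57 ± 0.11 on the log2 scale (SE, adjusted p = 0.00966, edgeR). Kcng1 had 68.6 and 59.5 CPM against 40.9 and 36.8 and rose by 0.72 ± 0.16, and Kcnab3 had 9.82 and 8.98 against 15.5 and 20.9 and fell by 0.94 ± 0.22. Each of the 3 lost its call when any 1 of the 4 sections compared was left out, which leaves 1 section in a group. In the fiber tracts 40 members were tested, in the hippocampus 61, in the hypothalamus 66 and in the striatum 57, and edgeR and DESeq2 called 0 in each of the 3 contrasts, although DESeq2 gave an adjusted p to only 22 of the 57 in the striatum for PTX+GCV against PTX and to 2 for the ABT263-labelled sections against PTX. Over all genes and the 3 contrasts pooled, 0.0308% were called in the fiber tracts, 0.0583% in the hippocampus, 0.0537% in the hypothalamus and 0.312% in the striatum. Members at an unadjusted p under 0.05 numbered 2 to 4 per contrast in the fiber tracts, beside 3.3% to 5.2% of all genes. They numbered 3 to 9 in the hippocampus (3.6% to 5.8%), 1 to 8 in the hypothalamus (7.1% to 9.8%) and 7 to 9 in the striatum (8.4% to 9.7%).

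**Figure D3:**
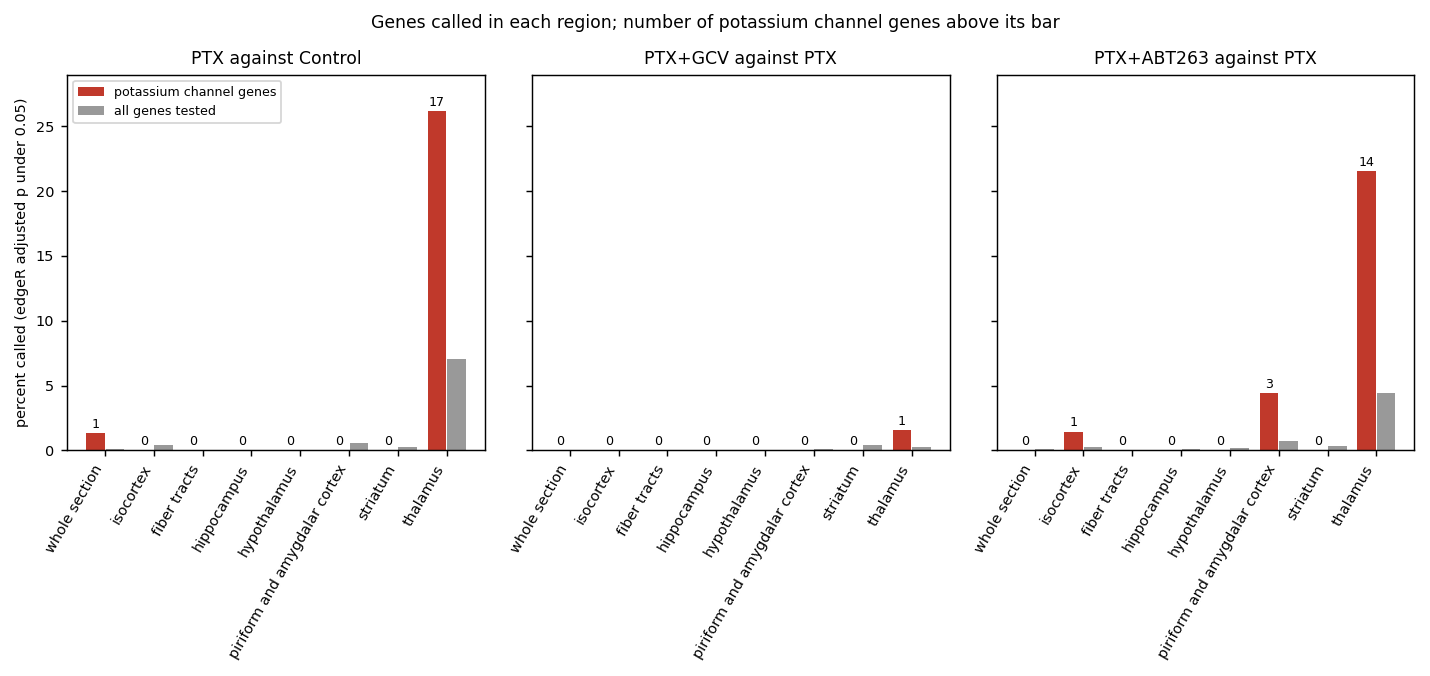
Percent of the tested potassium channel genes and of all tested genes called at an adjusted p under 0.05 (vertical axis) in each region and each of the 3 contrasts (horizontal axis). The thalamus has the highest bars, with 17 of 65 members in PTX against Control and 14 of 65 in the ABT263-labelled sections against PTX, beside 7.02% and 4.41% of all genes.

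The thalamus held most of the calls. In PTX against Control 17 of 65 members tested there passed (7.02% of all genes), 4 higher and 13 lower in PTX, with 27 at an unadjusted p under 0.05, beside 19.9% of all genes, and 13 called by DESeq2 of the 56 it gave an adjusted p (511 of all genes). The ABT263-labelled sections against PTX had 14 of 65 that passed (4.41%), 11 higher and 3 lower, with 29 at an unadjusted p under 0.05, beside 18.75% of all genes, and 9 called by DESeq2 of 41 (271 of all genes). In PTX+GCV against PTX 1 of 65 passed (0.274%), with 18 at an unadjusted p under 0.05, beside 11.2% of all genes, and 3 called by DESeq2 of 7 (52 of all genes). The medians over the members were -0.11, 0.10 and 0.14 on the log2 scale and those of all genes 0.01, 0.00 and 0.00. Leaving out PTX section 2 lowered the 17 to 9 and leaving out Control section 1 lowered it to 11. The 14 became 1 without the second ABT263-labelled section and 4 without PTX section 2. The 1 in PTX+GCV against PTX became 8 without PTX section 1.

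Kv3 genes moved in both directions in the thalamus. Kcnc1 had 222.1 and 167.1 CPM in PTX against 355.1 and 330.9 in Control, 284.1 and 262.8 for PTX+GCV and 278.9 and 318.9 for the ABT263-labelled sections. The PTX sections were the lowest 2 of the 8, and Kcnc1 fell by 0.81 ± 0.12 on the log2 scale (SE, adjusted p = 0.000694, edgeR). Kcnc4 was the opposite, with 25.2 and 41.2 CPM in PTX, 11.3 and 12.1 in Control, 19.0 and 19.0 for PTX+GCV and 12.4 and 14 for the ABT263-labelled sections. It rose by 1.46 ± 0.22 in PTX (adjusted p = 0.000712), and its PTX sections were the highest of all. Against PTX, the ABT263-labelled sections were lower in Kcnc4 by -1.31 (adjusted p = 0.00134) and higher in Kcnc1 by 0.61. Kcnc2 had 385.1 and 298.4 CPM in PTX and 419.5 and 384.4 in Control, and did not pass.

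Auxiliary subunits gave 5 of the 17 calls in PTX against Control. Kcnab3 had 26.2 and 25.9 CPM in PTX against 66.8 and 57.2 in Control, 59.8 and 54.9 for PTX+GCV and 32.8 and 47.2 for the ABT263-labelled sections. It fell by 1.23 ± 0.16 on the log2 scale (SE, adjusted p = 0.000208, edgeR), and was the single member that passed in PTX+GCV against PTX, at 1.13 ± 0.15 (adjusted p = 0.002). Kcnab2 had 228.8 and 230.6 CPM in PTX against 379.8 and 337.3 and fell by 0.64 ± 0.10. Its 2 PTX sections were the lowest of the 8, and PTX+GCV had 317.0 and 313.1 CPM, a difference from PTX that did not pass (adjusted p = 0.059). Kcne4 had 4.23 and 2.25 CPM in PTX against 14.2 and 14.1 and fell by 2.05 ± 0.28, on 26 and 10 UMIs in PTX. Kcnip3, another Kv4 partner, had 66.4 and 54.5 CPM against 91.1 and 104.3 and fell by 0.70 ± 0.12. Kcnip1 had 21.3 and 25.0 CPM in PTX against 6.48 and 6.94 and rose by 1.76 ± 0.23 (adjusted p = 0.000265), the opposite of Kcnip3. In the ABT263-labelled sections against PTX, Kcnip1 was lower by -1.15 and Kcnip3, Kcnab2, Kcnab3 and Kcne4 were higher by 0.65, 0.47, 0.61 and 1.08. Of these, Kcne4 (adjusted p = 0.0493) lost its call in 11 of 14 other settings and Kcnab3 in 9 of 15, with adjusted p up to 0.415 and 0.499.

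Because Kcnip1 and Kcnip3 encode partners of the same channels and moved in opposite directions, 250 bases before a start of each are shown from RefSeq (GRCm38.p6), read 5′ to 3′ on the gene's strand. Each gene has 3 starts in the table. The stretches shown are those farthest upstream that overlap no exon of any RefSeq or GENCODE transcript, of which Kcnip1 has 1 and Kcnip3 has 3, and which start was used in these sections was not measured. Capitals mark the letters GGGCGG, the GC box, on either strand (CCGCCC where it lies on the other strand). The Kcnip1 sequence is chr11:33843687-33843936 on the minus strand, and the Kcnip3 sequence chr2:127522095-127522344, also on the minus strand.
Kcnip1: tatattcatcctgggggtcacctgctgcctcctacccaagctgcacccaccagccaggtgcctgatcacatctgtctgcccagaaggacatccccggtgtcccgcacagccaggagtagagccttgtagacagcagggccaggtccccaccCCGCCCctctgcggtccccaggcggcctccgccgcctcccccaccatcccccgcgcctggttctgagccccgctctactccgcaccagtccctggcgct
Kcnip3: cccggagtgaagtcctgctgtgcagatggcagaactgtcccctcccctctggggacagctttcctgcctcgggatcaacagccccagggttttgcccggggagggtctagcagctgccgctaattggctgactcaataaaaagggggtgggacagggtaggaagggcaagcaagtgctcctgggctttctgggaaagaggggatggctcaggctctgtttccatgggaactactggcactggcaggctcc
The Kcnip1 stretch holds 1 GC box and the Kcnip3 stretch 0. Promoters from 250 bases before to 50 after the start were found for 52 of the 74 members, 75 promoters of 32851 in the table. The GC box was in 38 of the 75 (50.7%) and in 35.7% of all promoters, TATAAA in 3 (4.0%) against 13.6%, CACGTG in 6 (8.0%) against 7.15% and TGACGTCA in 0 against 1.79%, each searched on both strands, and no motif holds another. The median G and C content was 60.3% for the members and 52.7% for all promoters. The matches describe letters in these windows and nothing about bound factors.

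Among Kv1 genes, Kcna2, which sets axonal threshold, had 170.2 and 138.7 CPM in PTX against 243.3 and 215.2 in Control and fell by 0.56 ± 0.11 (adjusted p = 0.00598, edgeR). Kcna1 had 2.12 and 1.13 CPM in PTX, on 13 and 5 UMIs, against 5.67 and 8.22 in Control, and fell by 2.09 ± 0.45. It was higher by 2.39 in the ABT263-labelled sections, with 6.18 and 12.1 CPM, while PTX+GCV had 3.20 and 2.31 CPM. For Kcna1, then, the PTX+GCV sections lay nearer to PTX than to Control. Kcnn1, a small-conductance calcium-gated channel, had 10.1 and 5.86 CPM in PTX against 23.1 and 18.4 and fell by 1.29 ± 0.23, and Kcnt2, a sodium-gated channel, had 12.05 and 10.6 against 3.64 and 6.58 and rose by 1.03 ± 0.29. The silent subunit Kcns2 had 40.9 and 51.8 CPM in PTX against 27.5 and 27.8 and rose by 0.73 ± 0.15, and Kcns1 had 3.09 and 3.38 against 6.88 and 6.76 and fell by 1.07 ± 0.32 (adjusted p = 0.0499). The Kv7 subunit Kcnq3 fell by 0.39 ± 0.11, and the G protein-gated rectifier Kcnj3 by 0.42 ± 0.12. Members of the Kv4, EAG and ERG and two-pore families tested in the thalamus, 3, 5 and 8 genes, did not pass in PTX against Control. Of 16 other settings, Kcns1 lost its call in 14 (adjusted p up to 0.352), Kcnt2 in 9 (0.232), Kcnq3 in 8 (0.3) and Kcnj3 in 8 (0.31), while Kcnc1, Kcnc4, Kcnab2, Kcnab3, Kcne4, Kcnip1, Kcnip3 and Kcnn1 passed in each of them.

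In the ABT263-labelled sections against PTX, Kcnn1, Kcna2 and Kcnq3 were also higher, by 0.93, 0.44 and 0.41, and Kcns2 was lower by -0.64. Kcnq3 lost this call in 9 of 15 other settings, Kcnn1 in 7 and Kcna2 in 6. Kcnj10 passed here and not in PTX against Control. Its levels were 395.5 and 449.1 CPM in these sections, 311.5 and 316.0 in PTX, 380.2 and 363.8 in Control and 384.9 and 348.9 in PTX+GCV, a log2 difference of 0.43 ± 0.10 (SE, adjusted p = 0.0189). This contrast and PTX against Control use the same PTX sections, so their opposite signs are not independent of each other.

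**Figure D4:**
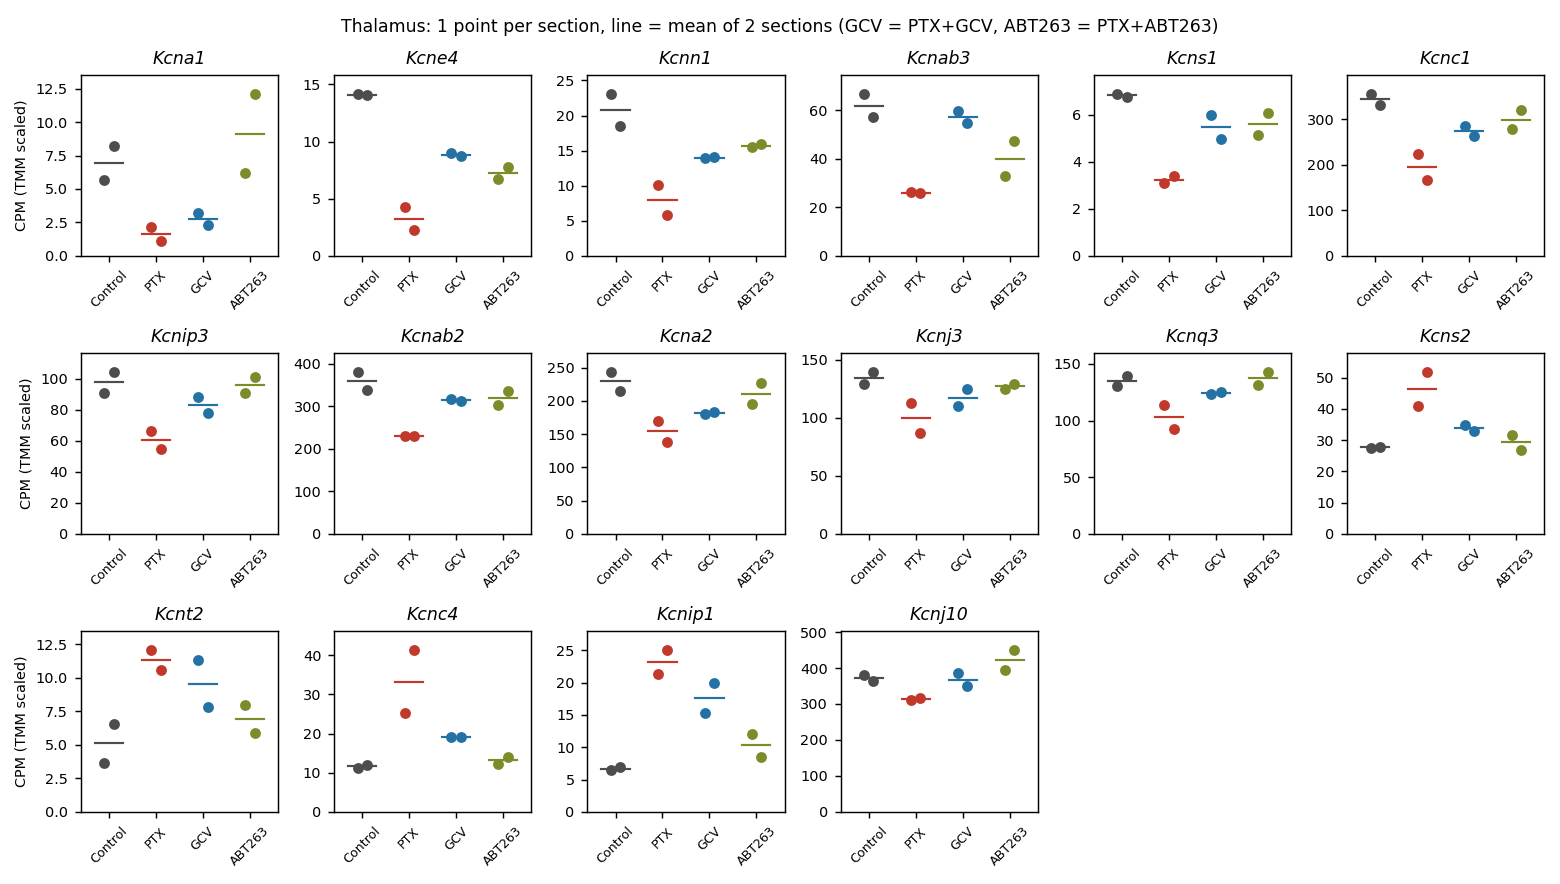
Level in the thalamus (vertical axis, TMM-scaled CPM from 0) of 16 of the 18 potassium channel genes that passed in at least 1 contrast, 1 point per section and 1 panel per gene, with the 4 groups on the horizontal axis and a line at the mean of each group's 2 sections. Kcnab3, for example, lies at 26.2 and 25.9 CPM in PTX against 66.8 and 57.2 CPM in Control. The genes were drawn because they were called in these same sections, so the gaps between groups add no support.

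Markers of thalamic neurons moved in the same sections. The summed level of the 10 thalamus markers was 3444 and 2760 CPM in PTX against 4689 and 4694 in Control, 4078 and 3920 for PTX+GCV and 3900 and 4218 for the ABT263-labelled sections. 7 of the 10 were lower in PTX (edgeR), among them Prkcd, a kinase of relay nuclei, with 1121 and 633 against 1781 and 1787 CPM, while Tcf7l2, Ramp3 and Ntng1 did not pass. Necab1 and Calb2, calcium-binding proteins, were higher in PTX by 1.30 and 1.84 on the log2 scale. Blood genes summed to 991.2 and 425.9 CPM in PTX against 138.1 and 12.4 in Control, genes of the fiber tract list, such as Mbp, to 5936 and 4987 against 7535 and 6978, and astrocyte genes to 1349 and 1468 against 1805 and 1554. Within the same thalamic spots the habenula list summed to 234.3 and 545.1 CPM in PTX against 95.55 and 131.4 in Control, with 234.0 and 247.0 for PTX+GCV and 150.2 and 115.4 for the ABT263-labelled sections, and the hypothalamus list to 420.5 and 548.2 against 308.5 and 246.3. Calb2 is itself on the habenula list and made up most of that sum, with 220 and 521.6 CPM in PTX and 87.86 and 114.9 in Control. Kcnip1, which rose in PTX, was higher in the habenula and in the hypothalamus than in the rest of the section. The part of these shifts in the changes of the potassium channel genes was not tested.

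The thalamus was divided into 3 parts by finer clusters of all spots (resolution 0.8), again without Kcn genes and after the changes above had been seen. Whether the groups were alike in makeup within a part was not tested. The part led by Necab1 held 46.1% and 59.4% of thalamic spots in PTX, 40.4% and 42.5% in Control, 43.3% and 41.9% for PTX+GCV and 42.2% and 38.2% for the ABT263-labelled sections. The part led by Cd59a held 37.7% and 27.6% in PTX and 39.5% to 49.8% in the others, and the part led by Fzd6 11.6% to 16.99% over the 8 sections. Several members differed between the parts. Kcnab3 had a median of 118 CPM in the part led by Fzd6 against 33.5 in the rest of the thalamus, and 19.4 against 71.4 in the part led by Necab1. Kcnt2, Kcnc4, Kcnip1 and Kcns2 were higher in the part led by Necab1, by 1.82, 1.11, 1.02 and 0.50 on the log2 scale, and Kcne4, Kcnc1 and Kcnab2 lower, by -1.68, -0.53 and -0.45.

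Within the part led by Necab1, 13 of 56 members were called in PTX against Control (5.81% of all genes), within the part led by Cd59a 3 of 53 (1.32%) and within the part led by Fzd6 4 of 42 (1.11%). Kcnc1 had 176.6 and 136.3 CPM in PTX against 339.1 and 273.5 in Control within the part led by Necab1 (log2 -0.95), 243.9 and 211.4 against 303.1 and 313.9 within that led by Cd59a (-0.43, adjusted p = 0.069) and 340.6 and 287.9 against 481.7 and 478.4 within that led by Fzd6 (-0.59). Kcnab3 within the same parts had log2 differences of -0.91, -0.84 and -0.86, of which the last passed (adjusted p = 0.0123). Between the ABT263-labelled sections and PTX, 13 (3.70% of all genes), 2 (0.809%) and 0 (0.499%) members were called. For PTX+GCV against PTX the counts were 0 of 56, 1 of 53 and 3 of 42. Of all genes 21 of 11959, 48 of 11253 and 65 of 9218 were called in that contrast. The parts hold the same spots and libraries as the whole thalamus, so these values are a description and no independent test.

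**Figure D5:**
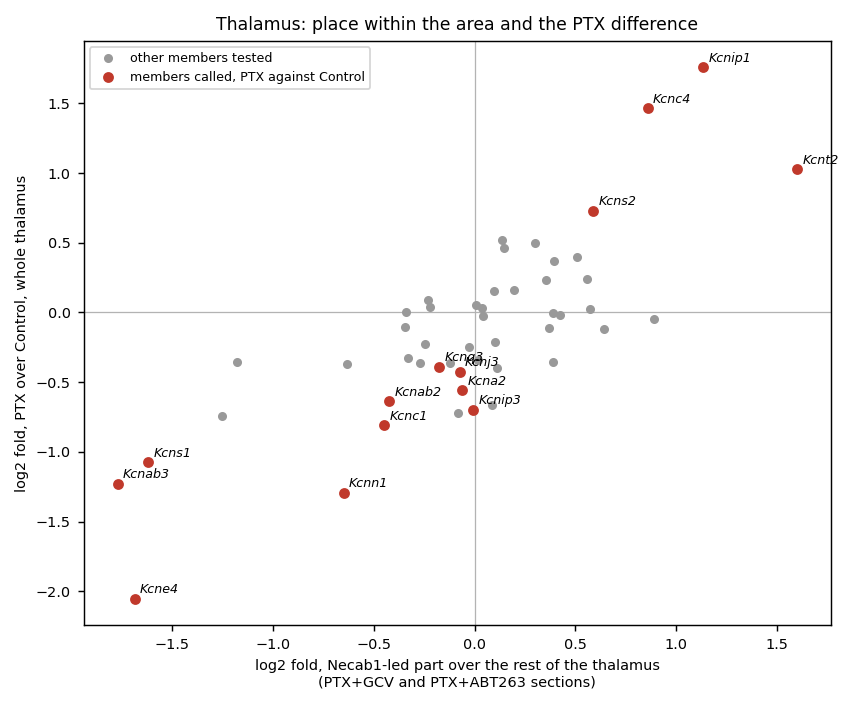
Log2 change of 50 potassium channel genes in the thalamus, PTX over Control (vertical axis), against their log2 level in the part led by Necab1 over the rest of the thalamus, measured in the PTX+GCV and PTX+ABT263 sections (horizontal axis), 1 point per gene. Kcnip1, Kcnc4, Kcns2 and Kcnt2 lie at the upper right (higher in that part and in PTX), and Kcnab3, Kcne4 and Kcns1 at the lower left.

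The plot of change against place uses sections with no overlap between its axes. Over all 53 members measured on both, 50 of them drawn, Pearson's r was 0.79 and Spearman's rho 0.73, and over all 11478 genes 0.425 and 0.271. These are descriptions across genes, which are not independent replicates and share libraries and areas. The sign was the same on both axes for 38 of the 53 members and 6587 of the 11478 genes.

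Whether the thalamus differed from the rest of the section was tested on differences of log CPM within sections (limma). For PTX against Control 0% of 14866 genes passed, members included, with 26 of 71 members and 16.8% of all genes at an unadjusted p under 0.05 and a lowest adjusted p of 0.135 among the members. Kcnab3 had a log2 change of -1.23 in the thalamus and 0.61 in the rest, a difference of -1.84 ± 0.27 (SE, adjusted p = 0.135). For the ABT263-labelled sections against PTX 0% passed, with 18 members and 11.6% of all genes at an unadjusted p under 0.05 and a lowest adjusted p of 0.381, and for PTX+GCV against PTX the lowest was 0.56. The changes are therefore not shown to be particular to the thalamus.

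Of 40 listed genes that move potassium or bind these channels, such as the sodium pump, HCN channels and cation-chloride cotransporters, 38 were tested in the whole section and isocortex. edgeR called 0 there in each contrast, and DESeq2 at most 1 in the whole section and 2 in the isocortex. In the whole section 5 to 8 had an unadjusted p under 0.05, beside 10.7% to 13.5% of all genes. In the isocortex 3 to 5 had, beside 6.78% to 12.5% of all genes. The smallest p in the whole section belonged in PTX against Control to Lrrc55 (0.66, adjusted p = 0.0875), Hcn4 (-0.52) and Sptbn4 (0.18), in PTX+GCV against PTX to Hcn4 (0.54), Lrrc38 (-0.55) and Adam11 (0.17), and in the ABT263-labelled sections against PTX to genes that included Sptbn4 (-0.20) and Hcn2 (0.30). In the thalamus 19 of 36 had an unadjusted p under 0.05 in PTX against Control, beside 19.9% of all genes, and 7 of 36 passed, beside 7.02% of all genes. Among those that passed the pacemaker channel Hcn3 rose by 1.16, while Hcn2 fell by 0.33, the Kv1 partners Adam23 and Adam11 by 0.57 and 0.45 and the anchor Ank3 by 0.46. Between the ABT263-labelled sections and PTX 5 rose, among them Hcn2 by 0.58, Slc12a2 by 0.58, and Ank3 and Atp1b3, and 2 fell, Hcn3 by 0.88 and Cntnap2 by 0.41 (4.41% of all genes). Of the 36, 16 had an unadjusted p under 0.05 in this contrast, beside 18.75% of all genes. PTX+GCV against PTX gave 0 of 36 with edgeR (0.274% of all genes). An unadjusted p under 0.05 was found for 8, beside 11.2% of all genes. DESeq2 also called 0, but in this contrast it gave an adjusted p to only 7 of the 65 members. How many of the partner genes received one was not counted, so the 0 from DESeq2 decides nothing for them.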

How the data were processed

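Visium gene expression was measured on 8 coronal brain sections, 2 per group by the GEO labels. The deposited values are whole-number counts of UMIs for each gene in each spot, for which the authors ran Space Ranger (version 1.2.1 by the headers) against mm10, and Seurat 4.0, also named in the submitters' notes, left no step in them. Of 32285 features, the members were those whose symbol begins with Kcn with at least 100 UMIs, less the named exceptions. 970 array positions occur in all 8 sections, as every array shares one layout.

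The 21328 spots used had at least 200 genes and at most 30% of UMIs from mitochondria. They were clustered with Seurat 5.3.0 in R 4.3.3 (SCTransform, integration, 2000 features, 20 components, resolution 0.15) without Kcn genes, and areas were named from marker lists. UMIs were summed per section and region, and levels compared between groups are CPM with TMM factors. Levels of an area, finer cluster or part of the thalamus set against other spots are CPM of total UMIs. Their folds come from fits with TMM factors, so a ratio of these levels can differ from the fold. Groups, with all 8 sections in 1 fit, and areas, with the section as a block, were tested with edgeR 4.0.16 (filterByExpr, quasi-likelihood F-test, Benjamini-Hochberg over all genes, adjusted p under 0.05, and for areas a fold of 2). Named areas with at least 50 spots in each section entered group tests, with the upper and deep isocortex pooled. The area led by Ucn3, which had no name from the markers, did not enter them. The parts of the thalamus had a limit on their total spots only (42 to 80 spots per section in the smallest), and smaller clusters of thalamic spots were left out. DESeq2 1.42.0 was the alternative, and the thalamus was set against the rest with limma 3.58.1 (prior count 2). SE is the standard error of the log2 change. Tests were tried on simulated data. Figures and promoter counts used Python 3.11.15, pandas 2.3.3 and matplotlib 3.10.9. Kcnip1 and Kcnip3 sequences come from RefSeq.

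Named were the members that passed in any group contrast, else the 5 with the smallest p in the whole section and isocortex, per area the 3 highest and 2 lowest called, the 10 with most UMIs, and the partners that passed or the 3 with the smallest p. Kcnj10, Kcnc1 and others beside these were named after their values were seen. The members and lists were chosen with earlier results of these data known. The parts of the thalamus and the finer layers were chosen after seeing the data. A few members and partner genes are counted here but not reported by name or drawn.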

Additional observations from a re-analysis of the deposited data

How the results depend on the processing

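Counts of members called by area changed with the fold (71 at 1.5 and 30 at 3 against 50). In the whole section, PTX against Control gave 3 with DESeq2, 2 with total counts or equal area shares, 14 with no filter on low counts, 0 with a replicate block, thinned counts or without the PTX+ABT263 sections, and 0 to 3 leaving out 1 section. PTX+GCV against PTX gave 4 with no filter, 1 with 2 groups in the fit and 0 to 1 leaving out 1 section (1 without either Control section). PTX+ABT263 against PTX gave 4 with DESeq2, 3 with total counts or equal area shares, 8 with no filter, 2 with 2 groups in the fit, 1 thinned, and 0 to 2 leaving out 1 section (2 without PTX+ABT263 section 1, 1 without any 1 of the Control or PTX+GCV sections). In the isocortex no filter gave 4 in PTX against Control and 4 in PTX+ABT263 against PTX, where 2 groups in the fit gave 2 and thinned counts 0, with 0 to 1 leaving out 1 section in each of these contrasts (1 in PTX against Control without either Control section). In the thalamus PTX against Control gave 12 to 19 under the other settings and 9 to 17 leaving out 1 section (9 without PTX section 2, 11 without Control section 1). PTX+GCV against PTX gave 3 with DESeq2, 10 with no filter and 1 to 8 leaving out 1 section (8 without PTX section 1), and PTX+ABT263 against PTX 9 with DESeq2, 8 with total counts, 9 with 2 groups and 1 to 17 leaving out 1 section (1 without PTX+ABT263 section 2, 4 without PTX section 2). Over the areas other than the isocortex, thalamus included, 14 to 42 calls were made leaving out 1 section against 35 (14 without PTX section 2, 20 without PTX+ABT263 section 2). The partner genes gave 2 with DESeq2, 1 with total counts and 0 to 1 leaving out 1 section (1 without either PTX+GCV section). The cause was not tested, except that fewer sections or counts were used where sections were left out or counts thinned. Of 37 single gene results in 572 settings, 140 lost their call and 0 reversed. Sections of the same number did not deviate together (correlations -0.115 to 0.066), and the replicate block gave 15, 1 and 13 members in the thalamus. Genes of few UMIs, such as Kcna1 and Kcne4 in the thalamus, are limited by depth.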
